A study of Mus musculus with 15 samples.

Results

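The DNA replication and G1/S genes comprised 41 of the 20207 genes in the tables. They were taken by symbol from a list of replication genes that the E2F transcription factors regulate, and all 41 were found. They were grouped by role into 8 genes of origin licensing, 4 of helicase activation and fork protection, and 6 encoding polymerases and primase. A further 9 encode the sliding clamp, its loader, the single-strand binding protein and the enzymes that finish new strands. The remaining members were 5 genes of nucleotide supply, 5 regulators and 4 genes of chromatin and histone mRNA. The levels were read in NIH3T3 cells, fibroblasts of mouse embryo kept as a line, and every sample carried the same stably introduced DD-sfGFP, a destabilizing domain (DD) made from FKBP and joined to superfolder GFP. The DD stays folded while the ligand Shield-1 (S1) is bound. The 5 control samples (time 0, no stress) were compared with cells taken after S1 had been removed for 45 min (n = 3), 135 min (n = 3) or 405 min (n = 4). Per the study's methods the construct was placed in a PiggyBac transposon vector, and the cells were a population sorted for high GFP and kept in S1. The labels do not say whether replicates were separate cultures, so the p-values measure the spread between these samples, which may be technical. S1 was taken away by adding purified FKBP(F36V) protein to the medium, per the methods. Each DD group thus differs from control in the loss of ligand, the added protein and the time since, which cannot be told apart in these samples. The study also withdrew S1 from cells with GFP alone and reported no significant change by RT-qPCR in the transcripts it measured. Such cells are not among these samples.

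A cell copies its DNA once per cycle, in S phase. In G1 the 6 MCM proteins are loaded at origins as an inactive helicase, a step called licensing, and at S phase entry the helicase is switched on, primase and polymerases follow, and a clamp, a single-strand binding protein and a supply of deoxynucleotides keep the forks moving. The genes for these proteins are switched on together late in G1, when cyclin E and its kinase release the E2F factors from the retinoblastoma proteins. NIH3T3 cells in serum cycle without synchrony, so a level in a bulk sample is a sum over cells in different phases. Fewer cells in S phase and less mRNA in each of them therefore cannot be told apart here.

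E2F factors bind short DNA words near the start of these genes. The promoter windows of RefSeq (build GRCm38.p6, 250 bases before to 50 bases after the start of the transcript) held an entry for 33 of the 41 members, and Mcm4, Ccne2, Pole, Prim2, Gins1, Gins2, Rfc2 and Tipin had none. Both strands were searched for TTTCCCGC, TTTCGCGC, TTTGCCGC and TTTGGCGC, counting matches that overlap each other or a CCAAT word, a common promoter word, separately. The words were present in 12 of the 33 members (36.4%), in 4.96% of the tested genes with an entry and in 2.6% of all genes with an entry. Counted by window, the shares were 30.8% for the members and 2.26% for all windows of the same length. The members were chosen as E2F-regulated genes, so these differences follow in part from that choice. Of the 7 licensing genes with an entry, 6 held the letters, whereas 0 of the 5 nucleotide supply genes did. The licensing genes are shown because the words were most frequent in that role, which was seen after the search. One match of each is given with its flanks and the matched letters in capitals.
Mcm3, chr1:20820275-20820304, minus strand: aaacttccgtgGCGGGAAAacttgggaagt
Mcm5, chr8:75109345-75109374, plus strand: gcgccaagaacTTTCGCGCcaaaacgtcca
Mcm6, chr1:128359797-128359826, minus strand: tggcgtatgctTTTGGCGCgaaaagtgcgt
Mcm7, chr5:138172030-138172059, minus strand: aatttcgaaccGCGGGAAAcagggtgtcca
Cdc6, chr11:98908002-98908031, plus strand: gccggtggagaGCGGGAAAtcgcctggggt
Cdt1, chr8:122568036-122568064, plus strand: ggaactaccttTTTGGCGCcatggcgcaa

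The match began 153 bases before the start in Mcm5, 110 in Mcm6, 165 in Mcm7 and 138 in Cdc6, while in Mcm3 and Cdt1 it lay after the start, at bases 20 and 33 of the transcript. Mcm5 and Mcm6 each held a second match that overlapped the one shown, and Mcm3, Mcm6 and Mcm7 each held 1 more elsewhere in the window. The promoters of Rpa1, Slbp and Dut are given whole because these members had the smallest adjusted p-values at 405 min among those with an entry, 1 higher and 2 lower than control. CCAAT on either strand is in capitals. No E2F-type word was found in these 3 windows, which says only that those letters are not there.
Rpa1, chr11:75348334-75348633, minus strand: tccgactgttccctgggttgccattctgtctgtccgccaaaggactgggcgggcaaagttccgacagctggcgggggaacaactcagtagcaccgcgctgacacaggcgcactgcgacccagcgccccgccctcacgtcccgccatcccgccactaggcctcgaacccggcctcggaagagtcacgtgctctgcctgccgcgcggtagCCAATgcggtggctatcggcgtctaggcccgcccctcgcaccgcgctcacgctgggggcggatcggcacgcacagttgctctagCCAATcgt
Slbp, chr5:33652525-33652824, minus strand: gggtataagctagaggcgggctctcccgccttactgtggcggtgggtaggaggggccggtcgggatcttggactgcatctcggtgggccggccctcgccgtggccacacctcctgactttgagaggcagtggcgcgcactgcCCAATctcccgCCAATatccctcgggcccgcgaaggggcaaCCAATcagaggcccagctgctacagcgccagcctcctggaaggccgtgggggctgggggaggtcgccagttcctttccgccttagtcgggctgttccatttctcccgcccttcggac
Dut, chr2:125247265-125247564, plus strand: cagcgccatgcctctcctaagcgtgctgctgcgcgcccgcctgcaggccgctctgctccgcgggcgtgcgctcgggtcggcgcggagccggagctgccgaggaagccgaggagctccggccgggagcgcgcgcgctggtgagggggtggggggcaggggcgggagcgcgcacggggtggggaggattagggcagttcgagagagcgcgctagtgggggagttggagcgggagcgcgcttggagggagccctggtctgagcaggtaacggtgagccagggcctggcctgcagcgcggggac
Rpa1 held 2 CCAAT words, Slbp held 3 and Dut none, and over the members 18 of 33 (54.5%) held at least 1, against 43.8% of the tested genes. At 405 min against control the median log2 fold change was 0.18 over the 11 tested members with E2F-type letters and 0.16 over the 21 members with an entry but without them. With a term for the library set, a split of the samples by their GC slope, these medians were -0.04 and 0.02.

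The libraries held between 6652539 counts (control replicate 3) and 30258404 counts (the first 45-min sample). All 7 fibroblast markers were above 1 CPM (counts scaled to CPM with the TMM-adjusted library size) in every sample and summed to 10722 to 16888 CPM, while the epithelial, leukocyte and endothelial markers summed to at most 2.61, 4.82 and 3.84 CPM. The samples stood apart in the slope of log2 CPM on the GC content of the transcripts. In 5 samples, called library set 2, the slope lay between -0.383 and 0.031 per 10 percentage points of GC, and in the other 10 (library set 1) between -1.414 and -0.667. Set 2 comprised the second control, the third 45-min sample and 405-min replicates 1, 2 and 4, so that it held 1 of 5 controls and 3 of 4 samples at 405 min, and no sample at 135 min. The gap between the sets was 0.284 and the next widest gap, which set off control replicate 3 at the low end, was 0.281. The labels name no batch and give 1 library kit for all samples, whereas the study's methods describe more than one preparation without saying which samples had which. Each member called at 405 min is therefore given with and without a term for the set.

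Levels in control cells spanned a wide range. On the per-length scale of the deposited RPKM, Pcna, which encodes the sliding clamp, was highest at 407 RPKM ± 102 (SD, n = 5), followed by the ribonucleotide reductase subunits Rrm1 at 80.5 ± 15.2 and Rrm2 at 69.4 ± 18.8. The genes of the 6 helicase subunits Mcm2 to Mcm7 lay between 18.1 RPKM ± 13.7 (Mcm5) and 63.4 RPKM ± 11.0 (Mcm4). The lowest members were Cdc6 at 2.84 ± 1.86, Pold1 at 1.54 ± 2.12 and E2f2 at 0.166 ± 0.0782 RPKM. Of the 40 pairs of neighbours in this order, 39 differed by less than the larger of their SDs. Pcna also has processed copies in the genome, so its counts are uncertain, and Ccne2, Tk1, Gins2 and Rfc4 overlap a neighbouring gene, whose reads cannot be separated where strand was not used in counting.

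Of the 41 members, 40 passed the filter of at least 1 count in every sample. Pold1, the catalytic subunit of DNA polymerase delta, did not, because control replicate 3 held 0 counts, which allows a level of up to 0.522 CPM there (3 counts, for counting error only). Its levels were 5.2, 33.5, 0, 5.2 and 6.3 CPM in the 5 controls, 11.3, 8.6 and 39.2 CPM at 45 min, 11.6, 8.0 and 11.0 CPM at 135 min, and 47.0, 27.6, 9.9 and 37.9 CPM at 405 min. The 5 libraries of set 2 held the 5 highest values whatever the time. E2f2, an activating E2F factor, passed but was counted only 9 to 59 times per library. The mean log2 CPM over the tested members was 6.36 ± 0.21 (SD, n = 5) in control, 6.49 ± 0.14 (n = 3) at 45 min, 6.5 ± 0.01 (n = 3) at 135 min and 6.46 ± 0.21 (n = 4) at 405 min. The differences between these means were smaller than the SD of the controls.

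**Figure D1:**
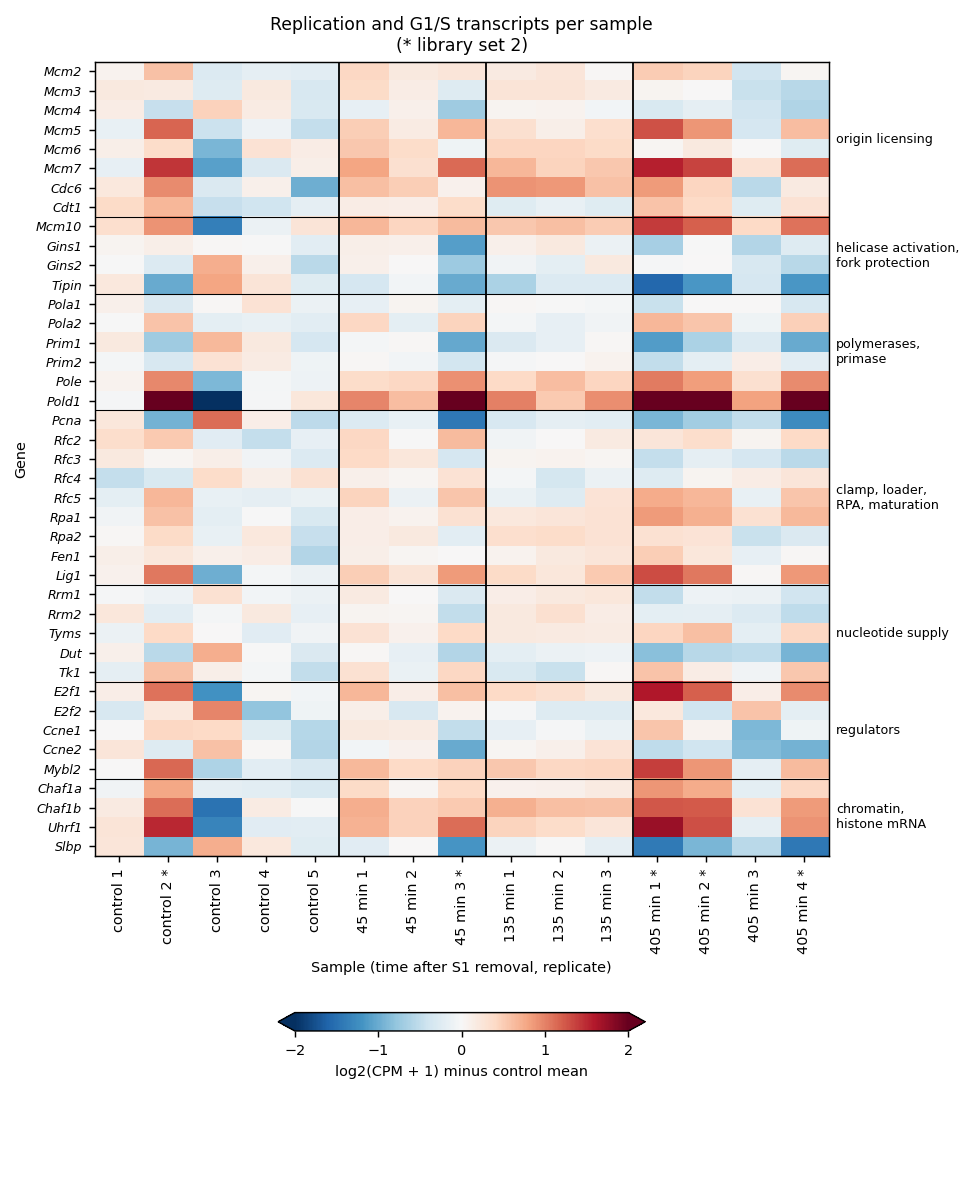
Each row is a member, ordered by role, and each column is a sample; colour gives log2(CPM + 1) minus the mean of the 5 controls on the same scale, and an asterisk marks library set 2. Mcm7, Uhrf1 and Pold1 are high and Slbp and Tipin are low in the marked samples, control replicate 2 among them, while the 3 samples at 135 min resemble each other.

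The comparison of 45 min with control asked whether replication transcripts move soon after the DD unfolds. At this time 0 of the 40 tested members passed the test (edgeR quasi-likelihood, Benjamini-Hochberg adjusted p under 0.05 over 10276 genes), where 0.0% of all tested genes were called, and 0 members had an unadjusted p under 0.05. DESeq2 also called 0 members, beside 0.0584% of genes. The log2 fold changes ran from -0.69 for Pcna (SE 0.39) to 0.53 for Mcm7, a helicase subunit, with 25 members above 0, 15 below and a median of 0.13 beside 0.02 over all tested genes. For no member did the 3 samples lie beyond all 5 controls, which happened in 0.467% of genes on the higher side and 0.448% on the lower.

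At 135 min, 0 of the 40 tested members were called, where 1.46% of all tested genes were, and 0 members had an unadjusted p under 0.05. DESeq2 called 0 members here too, beside 4.18% of genes. The log2 fold changes lay between -0.5 for Tipin, a partner of Timeless at the fork (SE 0.35), and 0.67 for Cdc6, which loads the MCM helicase (SE 0.36, edgeR adjusted p 0.489). The median over the members was 0.06, and over all tested genes it was -0.06. Mcm6, another helicase subunit, was the only member whose groups did not overlap. It had 240.5, 286.1, 117.1, 271.2 and 245.2 CPM in the controls against 300.2, 299.9 and 290.8 CPM at 135 min, a log2 change of 0.35 (SE 0.23, edgeR adjusted p 0.592). The highest control came close to the lowest 135-min sample, and 4.79% of all tested genes separated in this direction and 4.75% in the other.

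All 3 samples at 135 min belonged to library set 1, so another comparison used the 4 controls of that set. The GC slopes still differed there, at -0.914 to -0.809 at 135 min and -1.414 to -0.984 in these controls. GC content and time are thus not separated by this comparison. Within the set, 2 of 40 members rose at 135 min and 0 fell, where 2.08% of 10364 genes rose and 3.48% fell. Mybl2, the B-Myb factor that acts with the late cell cycle genes, had 28.2, 18.1, 24.2 and 22.3 CPM in these controls and 41.5, 38.0 and 38.1 CPM at 135 min, and rose by 0.76 on the log2 scale (SE 0.18, edgeR adjusted p 0.0368). Mcm5, a helicase subunit, had 105.8, 86.6, 109.4 and 83.7 CPM against 146.6, 127.1 and 148.6 CPM, and rose by 0.55 on the log2 scale (SE 0.14, edgeR adjusted p 0.0486). In both genes every sample at 135 min lay above the 4 controls of the set, and in both the control outside the set, replicate 2, was higher still, at 63.3 CPM for Mybl2 and 265.8 CPM for Mcm5. Their exonic GC content was 55.4% for Mybl2 and 52.4% for Mcm5. With all samples, the library set and a correction for GC content (a GC offset), neither was called at 135 min. The values were 0.47 for Mybl2 (edgeR adjusted p 0.153) and 0.33 for Mcm5 (adjusted p 0.223). Mcm7 at 0.86 (SE 0.23, edgeR adjusted p 0.0575), Cdc6 at 0.99 (SE 0.26, adjusted p 0.0531) and Rpa1 at 0.39 (SE 0.11, adjusted p 0.0609) did not pass.

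With all 15 samples and the library set as a covariate, 0 members were called at 135 min, where 7.93% of all tested genes were (3.06% higher and 4.88% lower). It called 0 at 45 min, where 0.0389% of genes were called, and 0 at 405 min, where 6.17% were higher and 6.87% lower. At an unadjusted p under 0.05 there were 10 members at 135 min, 3 at 45 min and 4 at 405 min. The share of all tested genes at an unadjusted p under 0.05 is not given, here or in later paragraphs. Counts at that threshold are therefore a description and show no excess among the members. The smallest edgeR adjusted p-values at 135 min in that model were 0.0588 for Tipin (log2 fold change -0.63, SE 0.2) and 0.0623 for Pole, the catalytic subunit of polymerase epsilon (0.6, SE 0.19). The count of called members at 135 min moved with the samples and the filter. Without control replicate 3, the shallowest library, more genes passed the filter, Pold1 among them, and the same model called 3 members higher at 135 min, where 4.72% of 11342 genes were, namely Pole (0.43, edgeR adjusted p 0.0249), Pold1 (0.72, adjusted p 0.0381) and Mcm7 (0.53, adjusted p 0.0472). With all 15 samples and no filter the model called Mcm7 higher (0.73, edgeR adjusted p 0.0423) and Tipin lower (-0.61, adjusted p 0.047). In that fit 322 of 19601 genes were called higher and 445 lower.

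At 405 min against control, 1 member rose and 4 fell among the 40 tested, where 9.99% of all tested genes rose and 13.4% fell. The share of members called in each direction was thus no larger than that of all genes. Rpa1 rose, and Slbp, Tipin, Dut and Prim1 fell. They belong to 5 roles, namely single-strand binding, histone mRNA, fork protection, nucleotide supply and priming. A further 8 members had an unadjusted p under 0.05 without passing, and the median log2 fold change over the members was 0.09 beside 0 over all tested genes. For 0 members did the 4 samples lie beyond all 5 controls, which happened in 6.75% of all tested genes on the higher and 6.43% on the lower side.

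Slbp (chr5:33982711-33994955, mm9, the span of the gene), whose protein binds the stem-loop that ends replication-dependent histone mRNAs, showed the largest of these decreases. Its levels were 257.3, 114.3, 360.3, 251.2 and 183.3 CPM in controls 1 to 5, 185.8, 217.9 and 95.6 CPM at 45 min, 201.3, 217.3 and 192.6 CPM at 135 min, and 80.7, 115.2, 149.4 and 80.5 CPM at 405 min. The lowest control, replicate 2, and the lowest 45-min sample were the samples of library set 2, and the highest 405-min sample was the one of set 1, so the groups overlapped. The mean was 233 CPM ± 91.8 (SD, n = 5) before and 106 CPM ± 33.0 (n = 4) after, and Slbp fell by 1.13 on the log2 scale (SE 0.31, edgeR adjusted p 0.0207). With the library set in the model the log2 fold change was -0.55 (SE 0.2, edgeR adjusted p 0.0875). Leaving out 405-min replicate 1, 2 or 4 also ended the call, with adjusted p-values of 0.0502 to 0.0741. Within set 1 the lone 405-min sample was compared with 4 controls and the log2 fold change was -0.82 (SE 0.3, adjusted p 0.199), and within set 2, where 3 samples faced 1 control, it was -0.32 (SE 0.24, adjusted p 0.567).

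The other genes of chromatin assembly had values of the opposite sign. Chaf1a and Chaf1b, subunits of the histone chaperone CAF-1, and Uhrf1, which guides the copying of DNA methylation, were at 0.46 (SE 0.24), 0.74 (SE 0.35) and 0.79 (SE 0.45) on the log2 scale at 405 min, and none passed (edgeR adjusted p 0.156, 0.122 and 0.19). Uhrf1 had 126.1, 301.5, 41.3, 89.5 and 90.3 CPM in the controls and 349.5, 259.2, 92.2 and 197.2 CPM at 405 min. The control of set 2 was thus at the level of the 405-min samples of set 2, and the 405-min sample of set 1 at that of the controls of set 1.

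Tipin (chr9:64129414-64152599, mm9), which steadies stalled forks together with Timeless, had 174.6, 74.6, 260.4, 179.6 and 126.5 CPM in the controls and 50.0, 66.3, 118.8 and 66.4 CPM at 405 min. The intermediate times gave 119.6, 145.2 and 74.6 CPM at 45 min and 97.1, 124.4 and 123.9 CPM at 135 min. The lowest control was again the one of set 2 and the highest 405-min sample the one of set 1. Tipin fell by 1.11 on the log2 scale (SE 0.33, edgeR adjusted p 0.0273), and with the library set in the model the log2 fold change was -0.53 (SE 0.21, edgeR adjusted p 0.104). The call was also lost without control replicate 1, 3 or 4 or 405-min replicate 1, 2 or 4 (adjusted p 0.0546 to 0.092).

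Mcm10, which helps to switch on the loaded helicase, had the opposite sign in the same role. It had 47.4, 70.1, 13.8, 34.2 and 44.5 CPM in the controls and 99.3, 86.8, 49.5 and 80.3 CPM at 405 min, a log2 change of 0.9 (SE 0.32, edgeR adjusted p 0.0524) that did not pass. The values for Gins1 and Gins2, subunits of the GINS complex that travels with the helicase, were -0.38 (SE 0.24) and -0.27 (SE 0.25), and neither passed.

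Prim1 (chr10:127452271-127467086, mm9) encodes the catalytic subunit of primase, which makes the short RNA primers of DNA synthesis. Its levels were 145.6, 77.7, 200.8, 145.3 and 101.0 CPM in the controls, 123.9, 128.9 and 62.3 CPM at 45 min, 104.5, 113.1 and 128.8 CPM at 135 min, and 57.9, 81.3, 104.7 and 63.1 CPM at 405 min. Prim1 fell by 0.8 on the log2 scale (SE 0.28, edgeR adjusted p 0.0494), close to the threshold. The control of set 2 again lay inside the 405-min range, as did control replicate 5 of set 1. The call ended when any of 11 of the 15 libraries was left out, with adjusted p-values of 0.0535 to 0.149, and with the library set in the model, where the log2 fold change was -0.31 (SE 0.19, edgeR adjusted p 0.314). Without the filter (adjusted p 0.0645), with filterByExpr (0.055), with upper-quartile factors (0.0586) or with a GC offset (0.059) it did not pass either.

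The partner subunit Prim2 had a log2 fold change of -0.19 (SE 0.16). For the polymerases the values were -0.19 for Pola1 (SE 0.14) and 0.4 for Pola2 (SE 0.2), the catalytic and accessory subunits of polymerase alpha, and 0.69 for Pole (SE 0.28). None of these passed, with edgeR adjusted p-values from 0.0835 for Pole to 0.348 for Prim2.

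Rpa1 (chr11:75113850-75161806, mm9) encodes the large subunit of RPA, the complex that covers single-stranded DNA at forks and at damage. It had 188.9, 295.8, 172.2, 195.7 and 159.4 CPM in the controls, 215.5, 207.1 and 243.2 CPM at 45 min, 228.6, 233.9 and 240.7 CPM at 135 min, and 355.7, 325.4, 243.2 and 309.5 CPM at 405 min. Apart from control replicate 2, all controls lay below every treated sample. From 202 CPM ± 54.1 (SD, n = 5) to 308 CPM ± 47.5 (n = 4), Rpa1 rose by 0.61 on the log2 scale (SE 0.17, edgeR adjusted p 0.0223), and with the library set in the model the log2 fold change was 0.36 (SE 0.12, edgeR adjusted p 0.0521). Without control replicate 3 the model with the set called Rpa1 at 0.33 (adjusted p 0.038), and with a GC offset added at 0.35 (adjusted p 0.0395). Leaving out control replicate 1 or 4 or 405-min replicate 1, 2 or 4 ended the call of the model without the set (adjusted p 0.0509 to 0.0777). Rpa2, the middle subunit of the same complex, had a log2 fold change of -0.03 (SE 0.21).

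Pcna, the most abundant member, varied widely among the controls, which held 1334.7, 591.6, 2496.2, 1252.7 and 796.7 CPM, and the samples at 405 min held 609.2, 705.2, 813.6 and 479.2 CPM. The mean went from 1294 CPM ± 740 (SD, n = 5) to 652 CPM ± 142 (n = 4), a log2 change of -0.99 (SE 0.36, edgeR adjusted p 0.0571) that did not pass, and with the library set in the model the value was -0.36 (SE 0.3). Control replicate 3 alone held more Pcna than any other sample. The clamp loader subunits ranged from -0.39 for Rfc3 (SE 0.16) to 0.46 for Rfc5 (SE 0.24). Fen1, the flap nuclease, was at 0.14 (SE 0.17) and Lig1, the ligase that joins Okazaki fragments, at 0.74 (SE 0.32), and none of these passed.

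Dut (chr2:125072984-125084785, mm9), the dUTPase that keeps uracil out of DNA, had 172.1, 110.7, 268.3, 159.9 and 131.9 CPM in the controls and 89.8, 109.5, 113.5 and 84.2 CPM at 405 min. The samples in between had 164.1, 143.4 and 107.1 CPM at 45 min and 140.9, 148.5 and 150.1 CPM at 135 min. Only the highest 405-min sample exceeded the lowest control. Dut fell by 0.76 on the log2 scale (SE 0.22, edgeR adjusted p 0.0255), and with the library set in the model the log2 fold change was -0.46 (SE 0.2, edgeR adjusted p 0.141). The call was lost without control replicate 1 or 405-min replicate 1, 2 or 4 (adjusted p 0.0506 to 0.0842). The other nucleotide genes, which encode ribonucleotide reductase, thymidylate synthase and thymidine kinase, had log2 fold changes of -0.27 for Rrm1 (SE 0.14), -0.29 for Rrm2 (SE 0.15), 0.33 for Tyms (SE 0.17) and 0.28 for Tk1 (SE 0.22), and none passed.

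No licensing gene passed at 405 min in the model with group only. With a GC offset Mcm3, a helicase subunit, was called lower (-0.52, SE 0.18, edgeR adjusted p 0.0463). In that fit 2 members were higher, Rpa1 and Mcm10, and 4 lower, Mcm3, Slbp, Tipin and Dut, where 11.9% of genes were higher and 14.8% lower. Mcm7 (chr5:138605817-138613090, mm9) had the smallest adjusted p-value of this role without the offset. Its controls held 107.8, 330.1, 56.5, 99.2 and 131.4 CPM, the 45-min samples 209.6, 152.1 and 268.2 CPM, the 135-min samples 193.4, 166.5 and 177.0 CPM, and the 405-min samples 357.5, 311.8, 148.2 and 263.5 CPM. Control replicate 2 lay among the 405-min samples of its library set, and the remaining controls lay below every sample taken after S1 removal. The log2 fold change was 0.9 (SE 0.39, edgeR adjusted p 0.101), and 0.36 (SE 0.24, edgeR adjusted p 0.355) with the library set in the model. The other licensing genes ranged from -0.4 for Mcm4 (SE 0.2) to 0.58 for Mcm5 (SE 0.34).

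Of the regulators, Ccne2, one of the cyclins E that open S phase, came closest. Its levels were 55.8, 38.8, 70.4, 47.6 and 30.7 CPM in the controls, 45.2, 49.8 and 22.8 CPM at 45 min, 48.1, 50.3 and 56.9 CPM at 135 min, and 32.6, 35.3, 25.1 and 23.8 CPM at 405 min. Of the controls, replicate 5 lay inside the 405-min range and the others above it. Its log2 fold change was -0.73 (SE 0.26, edgeR adjusted p 0.0532), and without control replicate 2 (adjusted p 0.0223), control replicate 5 (0.0336) or 45-min replicate 3 (0.0302) it passed. E2f1, an activating E2F factor, had a log2 change of 0.9 (SE 0.36, edgeR adjusted p 0.0781) with 28.2, 55.5, 10.5, 26.4 and 24.7 CPM in the controls and 79.6, 59.9, 28.3 and 50.3 CPM at 405 min. Mybl2 was at 0.65 (SE 0.34), Ccne1 at -0.05 (SE 0.28) and E2f2 at 0.03 (SE 0.48).

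**Figure D2:**
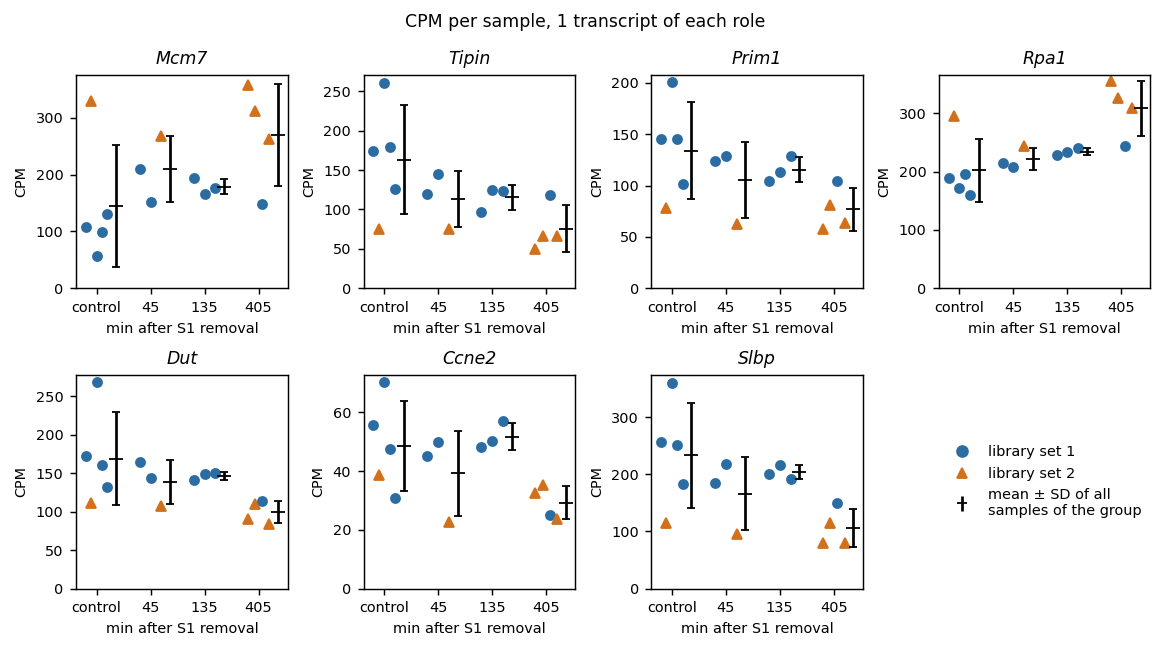
Points are CPM per sample for the 7 members with the smallest adjusted p-value of their role, plotted against the time after S1 removal, with circles for library set 1, triangles for set 2 and bars for the mean ± SD of all samples of a group. In Slbp, Tipin and Prim1 the triangles lie below the circles at control, 45 and 405 min, and in Mcm7 and Rpa1 above them.

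Which members passed at 405 min depended on single libraries. Without control replicate 2, the only control of set 2, 14 members were higher and 7 lower, where 24.5% of 10287 genes were higher and 23.9% lower. Without 405-min replicate 3, the only sample of set 1 at that time, 10 members were higher and 5 lower, where 14.6% of 10298 genes were higher and 19.9% lower. In both cases Mcm7, Mcm10, E2f1, Lig1, Pole, Chaf1a, Pola2, Rfc5 and Tyms joined Rpa1 among the higher members and Pcna joined Slbp, Tipin, Dut and Prim1 among the lower. Leaving out 405-min replicate 1, 2 or 4, all of set 2, left 0 members called in either direction. Leaving out control replicate 3 gave 2 higher and 2 lower of the 41 members then tested, where 8.2% of 11342 genes were higher and 9.75% lower. With the set in the model and without that control, Rpa1 rose and Slbp fell (log2 fold change -0.44, SE 0.15, edgeR adjusted p 0.0448), where 10.4% of genes rose and 10.5% fell. Within set 1 alone 0 of 40 members passed at 405 min, where 2.07% of genes did, and 6 had an unadjusted p under 0.05. Within set 2 alone 0 of 41 passed, where 3.77% of genes did, and 0 had an unadjusted p under 0.05. DESeq2 called 3 members higher and 6 lower at 405 min, where it called 14.0% of genes higher and 19.2% lower, with E2f1 and Mcm10 joining Rpa1 and with Pcna and Ccne2 joining the 4 that fell.

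**Figure D3:**
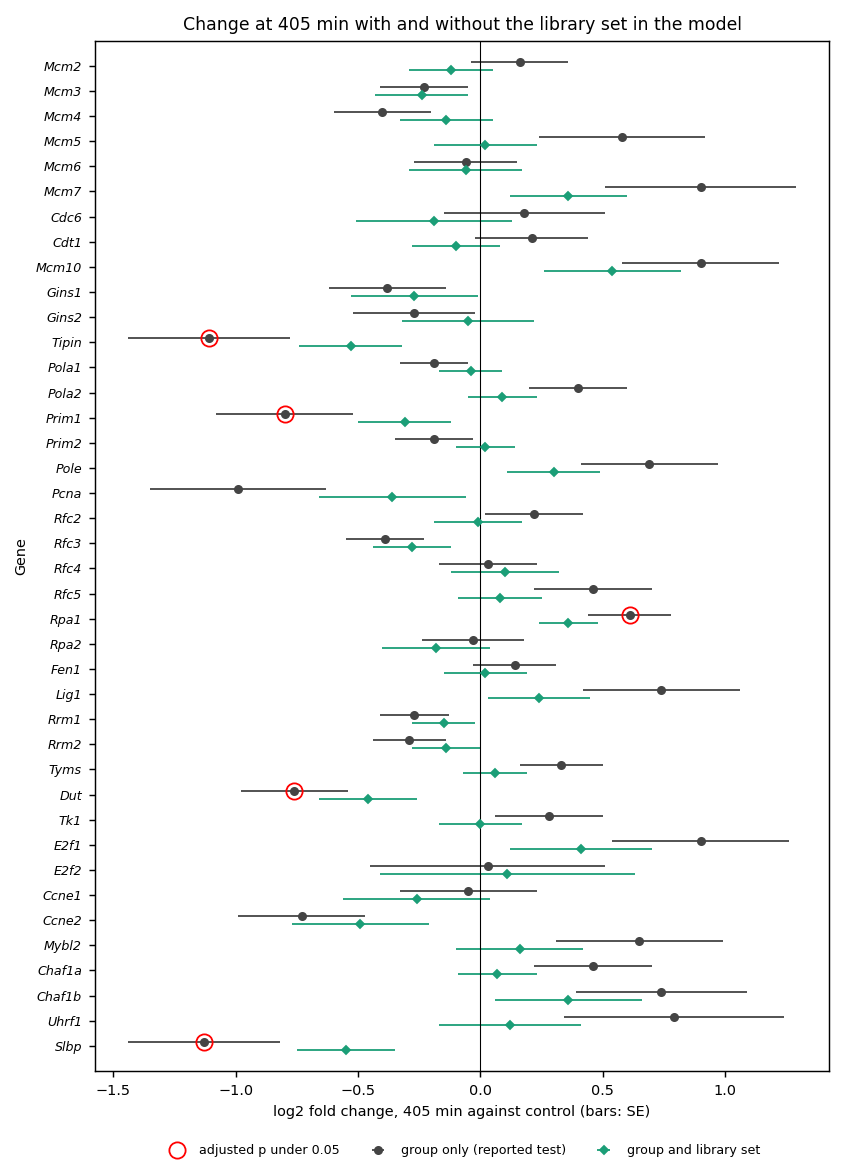
Log2 fold change of the 40 tested members at 405 min against control, with bars of 1 SE, from the model with group only (circles, those with an adjusted p under 0.05 ringed in red) and from the model with group and library set (diamonds). For 33 of the 40 members the diamond lies nearer to 0 than the circle: Slbp goes from -1.13 to -0.55, Tipin from -1.11 to -0.53 and Mcm7 from 0.9 to 0.36.

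The difference between the library sets was itself measured in the model that held group and set. Of the 40 tested members, 18 were higher and 7 lower in set 2, where 26.0% of all tested genes were higher and 24.1% lower. Uhrf1 (log2 difference 1.36, SE 0.26), Mcm7 (1.19, SE 0.21), Mcm5 (1.09, SE 0.18) and Lig1 (0.97, SE 0.18) were the members furthest above 0. Tipin (-1.04, SE 0.18), Slbp (-1.0, SE 0.18), Pcna (-1.0, SE 0.27) and Prim1 (-0.86, SE 0.17) were furthest below. These 8 passed the test (edgeR adjusted p 0.000192 for Mcm5 to 0.00588 for Pcna). The sets were drawn from the slope of expression on GC content in these same counts, which used all tested genes with a GC value, members included. A relation of this difference to GC is therefore in part built in. The calls and p-values between the sets are in part built in as well and are given as a description.

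Members split by GC content in the same way. The exonic GC content of the members ran from 37.6% (Ccne2) to 60.2% (Pold1), beside a median of 49.1% over the tested genes. Of the 22 tested members at or above that median, 19 had a positive set difference, 15 were called higher and 1 lower. Over all tested genes at or above it, 3712 of 4927 were positive, 2295 were called higher and 401 lower. Of the 18 members below it, 14 had a negative difference, 6 were called lower and 3 higher. Over all tested genes below it, 3674 of 4926 were negative, 1947 were called lower and 303 higher. Dut was an exception, with 52.7% GC and a set difference of -0.51 (SE 0.17). Across the 40 members GC content and the set difference had a Pearson r of 0.65, and GC content and the log2 fold change at 405 min one of 0.62, beside 0.59 and 0.43 across 9853 genes. These are correlations across genes that share libraries and are given as a description. Whether GC content, the library set or S1 removal accounts for the values at 405 min cannot be told apart in full, since 3 of the 4 samples at that time were in set 2.

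**Figure D4:**
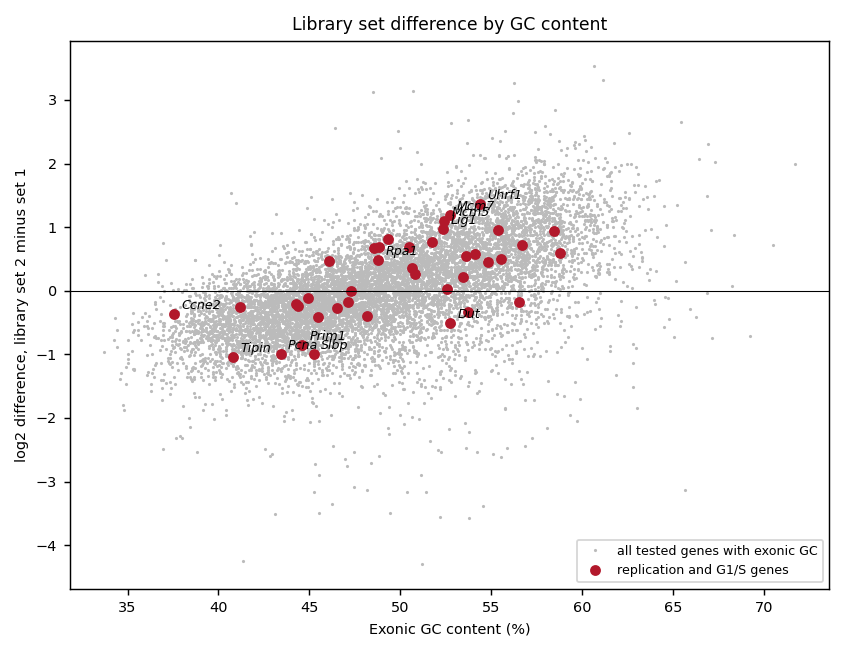
Exonic GC content (percent) of each tested gene against its log2 difference between library set 2 and set 1 at equal time, for all genes with a GC value (grey) and the 40 tested members (red). Uhrf1, Mcm7, Mcm5 and Lig1 lie high at the right, Tipin, Pcna, Prim1 and Slbp lie low at the left, and Dut lies below 0 among genes of high GC.

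The 405-min samples were also compared with those at 135 min, to ask whether transcripts moved on between the later times. Here 0 of 40 members passed (edgeR quasi-likelihood test), where 2.24% of all tested genes were higher and 2.82% lower, and 9 members had an unadjusted p under 0.05. DESeq2 called 14.3% of genes and 2 members, Rrm1 (-0.47, adjusted p 0.0402) and Rrm2 (-0.53, adjusted p 0.0296), the subunits of ribonucleotide reductase. In Rrm2 the 3 samples at 135 min had 384.3, 416.3 and 371.4 CPM and the 4 at 405 min had 291.4, 296.1, 276.6 and 233.3 CPM. The groups did not overlap, and the log2 fold change was -0.51 (SE 0.16, edgeR adjusted p 0.0787). Rrm1 likewise had 800.5, 831.6 and 848.5 CPM against 514.1, 675.1, 672.2 and 558.6 CPM, a log2 change of -0.45 (SE 0.16, edgeR adjusted p 0.0955).

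A fit of these 7 samples alone, which estimates the spread without the controls and the 45-min samples, called 9 of 41 members lower and 1 higher, where 10.9% of 12188 genes were lower and 15.4% higher. The lower members were Ccne2 (-0.86, edgeR adjusted p 0.013), Slbp (-0.97, adjusted p 0.0175), Dut (-0.59, adjusted p 0.0206), Rrm2 (-0.54, adjusted p 0.0209), Rfc3, Rrm1, Mcm6, Pcna and Mcm4, and the higher one was Pold1 (1.56, adjusted p 0.0304). Without control replicate 2 the fit of the other 14 samples called Slbp (edgeR adjusted p 0.043) and Rrm2 (adjusted p 0.0464) lower, where 620 of 10287 genes were lower. Of the 7 samples, 3 at 405 min and none at 135 min belonged to library set 2.

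In all, 10 members lay lower in every 405-min sample than in every 135-min sample, namely Mcm3, Mcm4, Mcm6, Pcna, Ccne2, Rrm1, Rrm2, Dut, Slbp and Rfc3, and 1 lay higher, Rpa1. Such separation was common, at 17.6% of all tested genes for lower and 19.2% for higher. Ccne2 had a log2 change of -0.83 (SE 0.29, edgeR adjusted p 0.0965) and Slbp one of -0.94 (SE 0.34, adjusted p 0.109) in the fit of all 15 samples. With the library set in that model 0 members passed and 3.68% of genes did, 1 member had an unadjusted p under 0.05, and 28 of the 40 values were below 0. The share of all tested genes below 0 is not given, so these signs are a description and not a test. Both comparisons with the 405-min group use the same 4 samples. Over all times at once, 0 of the 40 members passed the edgeR test, where 9.69% of all tested genes did, and 7 had an unadjusted p under 0.05.

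Other genes of replication and G1/S, from a list of 64 outside the members, were read in the same way, and 62 were tested. At 405 min 4 rose and 12 fell in the model with group only, beside 9.99% and 13.4% of all genes. Dctd, which makes dUMP from dCMP, fell by 1.43 on the log2 scale (SE 0.23, edgeR adjusted p 0.00105), from 126 CPM ± 31.8 (SD, n = 5) to 46.5 CPM ± 13.2 (n = 4). Usp1, a deubiquitinase that acts on PCNA, fell by 0.88 (SE 0.21, adjusted p 0.0112), and Hells, a chromatin remodeller, fell by 1.44 (SE 0.37, adjusted p 0.0149). Mcmbp, an MCM-binding protein listed under the older name 1110007A13Rik, fell by 0.7 (SE 0.17, adjusted p 0.0132).

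With the library set in the model, 1 gene of that list rose and 2 fell at 405 min, where 6.17% of all tested genes rose and 6.87% fell. Dctd had a log2 change of -1.05 (SE 0.15, edgeR adjusted p 0.00023) and Usp1 one of -0.52 (SE 0.12, adjusted p 0.0107). Rb1, the retinoblastoma protein that holds E2F factors, rose by 1.13 on the log2 scale (SE 0.21, adjusted p 0.00157), with 18.6 CPM ± 5.19 (SD, n = 5) in control, 28.6 CPM ± 3.93 (n = 3) at 135 min and 32.6 CPM ± 11.8 (n = 4) at 405 min. At 135 min the same model called Cdc25a, a phosphatase that activates the cyclin E kinase, higher (0.56, SE 0.16, edgeR adjusted p 0.0449), and Cdc7, a kinase that fires origins, lower (-0.55, SE 0.15, adjusted p 0.0417) together with Usp1 (-0.44, SE 0.12, adjusted p 0.0364).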

How the data were processed

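Messenger RNA was sequenced from 15 samples of NIH3T3 cells with DD-sfGFP. The authors aligned reads to mm9 and quantified RefSeq genes with DNAnexus, and which aligner was run is not given in the sources used here. The deposited tables give an expected count and an RPKM that the authors computed per gene. A score and a ratio computed by the authors from RPKM within each sample were deposited as well and were not used. Fractions occurred in 8.7% to 15.6% of genes per sample and were rounded to whole numbers, and large values carry 4 significant digits. The methods describe more than one way of library preparation without tying them to samples, and it is not stated whether counting used strand.

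The 10276 of 20207 genes that had 1 count or more throughout were fitted in edgeR 4.0.16 (R 4.3.3) with TMM scaling and a quasi-likelihood model of group over all 15 samples. P-values were adjusted by Benjamini-Hochberg over all tested genes, with a threshold of 0.05, and the SE is the absolute log2 fold change divided by the square root of F. The log2 CPM values used a prior count of 2. Exonic GC content came from the GENCODE annotation of the same assembly and was known for 95.9% of the tested genes. Library sets were split at the widest gap in the GC slope, and the split was defined from the data. The model was run before use on simulated counts with known changes at 405 min. Those counts held no difference between library sets and less spread than these data, so the run does not show how the model copes with either. DESeq2 1.42.0, other filters and scalings, GC offsets, a replicate block and the omission of each sample were tried as alternatives. Total counts per sample ranged from 6652539 to 30258404, and counts of replicates differed by more than sampling noise in all 22 pairs. The members and gene lists were chosen with earlier results of these data known. The members described sample by sample are the called ones and the one with the smallest adjusted p-value at 405 min in each role, and others were added after their values were seen.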

Additional observations from a re-analysis of the deposited data

Results flagged for a closer look

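The controls and the 405-min samples of each member gave 82 groups of 4 or 5 samples. In 11 of them the gap of 1 sample to its nearest neighbour exceeded Dixon's limit at 95%. Chance gives about 1 in 20 for independent groups, but these groups share the same controls or the same 405-min samples. The count is therefore a description and not a test. Control replicate 2 accounted for 8 of the 11. It was the highest control for Mcm5 at 265.8 CPM (others 83.7 to 109.4), for Mcm7 at 330.1 CPM (56.5 to 131.4) and for Pola2 at 101.6 CPM (58.4 to 67.4). The same held for Chaf1a at 181.6 CPM (85.6 to 100.3), Rfc5 at 66.6 CPM (36.3 to 38.0) and Rpa1 at 295.8 CPM (159.4 to 195.7), and for the low genes Mybl2 at 63.3 CPM (18.1 to 28.2) and Pold1 at 33.5 CPM (0 to 6.3). This library is the only control of set 2.

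Control replicate 3, the shallowest library, was lowest for Mcm6 at 117.1 CPM (others 240.5 to 286.1) and highest for Rrm1 at 895.0 CPM (666.8 to 715.5). Control replicate 5 was lowest for Fen1 at 71.1 CPM (114.5 to 125.0). No cause of these values was tested.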

How the results depend on the processing

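Over 30 alternative settings, 26 planned and 4 chosen after seeing the data, no called value changed sign. Without any alternative 1 member was higher and 4 lower at 405 min, and 58 genes were higher and 92 lower at 135 min, 1027 and 1382 at 405 min, and 230 and 290 at 405 against 135 min. Counts that moved by more than 1.5 times are given next, and the cause was not tested. With the library set as a covariate the counts were 0 higher and 0 lower at 405 min (members), 3 higher and 1 lower at 45 min (genes), 314 higher and 501 lower at 135 min (genes), 634 higher and 706 lower at 405 min (genes). With a GC offset the counts were 2 higher at 405 min (members), 2 higher at 45 min (genes), 128 higher and 140 lower at 135 min (genes), 433 higher and 457 lower at 405 against 135 min (genes). With the replicate number as a block the counts were 0 higher and 0 lower at 405 min (members), 11 higher and 20 lower at 135 min (genes), 333 higher and 467 lower at 405 min (genes), 5 higher and 10 lower at 405 against 135 min (genes). With the replicate block and a GC offset the counts were 0 higher at 405 min (members), 39 lower at 135 min (genes), 841 lower at 405 min (genes), 100 higher and 112 lower at 405 against 135 min (genes). Within library set 1 the counts were 2 higher at 135 min (members), 0 higher and 0 lower at 405 min (members), 216 higher and 361 lower at 135 min (genes), 121 higher and 94 lower at 405 min (genes), 0 higher and 0 lower at 405 against 135 min (genes). Within library set 2 the counts were 0 higher and 0 lower at 405 min (members), 243 higher and 239 lower at 405 min (genes). Fitting the compared groups alone the counts were 0 higher and 0 lower at 405 min (members), 1 higher and 9 lower at 405 against 135 min (members), 16 higher and 24 lower at 135 min (genes), 349 higher and 463 lower at 405 min (genes), 1880 higher and 1324 lower at 405 against 135 min (genes). With DESeq2 the counts were 3 higher at 405 min (members), 2 lower at 405 against 135 min (members), 2 higher and 4 lower at 45 min (genes), 161 higher and 269 lower at 135 min (genes), 799 higher and 672 lower at 405 against 135 min (genes). Without the filter the counts were 32 higher and 48 lower at 135 min (genes), 83 higher and 124 lower at 405 against 135 min (genes). With filterByExpr the counts were 151 higher at 405 against 135 min (genes). With the set and without control replicate 3 the counts were 3 higher at 135 min (members), 1 lower at 405 min (members), 4 higher and 3 lower at 45 min (genes), 535 higher and 644 lower at 135 min (genes), 610 higher and 617 lower at 405 against 135 min (genes). With the set and no filter the counts were 1 higher and 1 lower at 135 min (members), 0 higher and 0 lower at 405 min (members), 3 higher and 2 lower at 45 min (genes), 322 higher and 445 lower at 135 min (genes), 540 higher and 576 lower at 405 min (genes), 110 higher and 135 lower at 405 against 135 min (genes). With the set and a GC offset the counts were 0 lower at 405 min (members), 3 higher at 45 min (genes), 431 higher and 522 lower at 135 min (genes), 824 lower at 405 min (genes). With the set and the replicate block the counts were 1 lower at 135 min (members), 0 higher and 1 lower at 405 min (members), 1 higher at 45 min (genes), 235 higher and 386 lower at 135 min (genes), 588 higher and 640 lower at 405 min (genes), 96 higher and 118 lower at 405 against 135 min (genes). The within-set fits rest on 1 sample at 405 min (set 1) or 1 control (set 2), assumed to vary like the other groups. The fit of the compared groups at 405 against 135 min tested 41 members and 12188 genes, of which 15.4% were higher and 10.9% lower. With the GC offset Mcm3 took the place of Prim1 among the 4 lower members at 405 min.

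Leaving out 1 sample at a time gave 0 to 14 higher and 0 to 7 lower members at 405 min, 0 to 2 lower at 405 against 135 min and 0 otherwise. Over all genes it gave 20 to 115 higher and 22 to 182 lower at 135 min, 418 to 2517 and 528 to 2463 at 405 min, 19 to 755 and 23 to 637 at 405 against 135 min, and 0 at 45 min. The deviations of same-numbered samples had a mean correlation of -0.11 over 19 pairs, and 2 of 14 samples correlated best with their own number. Pairs of the same library set had a mean of 0.16 (42 pairs) and pairs of different sets -0.17 (41 pairs). The sets were split on the GC slope of these same counts, so this contrast is in part built in. Some same-numbered samples lay in different sets, so the correlations cannot show whether same-numbered samples shared a culture or harvest. Depth limits E2f2 most, which held 9 to 59 counts per library. Pold1 held 0 counts in control replicate 3 and 72 to 690 in the other samples, and the cause of that 0 was not tested.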

Other observations

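Genes of G2 and mitosis, which are switched on after S phase, were read as a second list of 30 tested genes. At 135 min 27 of the 30 lay below control with a median log2 fold change of -0.31, and 0 passed in the edgeR test, 4 having an unadjusted p under 0.05. With the library set in the model 28 lay below control, the median was -0.33 and 2 fell, where 4.88% of all tested genes did. The 30 genes share the same libraries, and the share of all tested genes below control is not given here. Their signs and medians are therefore a description and not a test. At 405 min the median was -0.35 without the set, with 1 gene higher and 1 lower, where 9.99% and 13.4% of all tested genes were. With the set it was -0.09, with 0 called by edgeR, 3 having an unadjusted p under 0.05, where 6.17% of all tested genes were higher and 6.87% lower. In set 2 against set 1, 14 of the 30 were lower and 3 higher, where 24.1% of all tested genes were lower and 26.0% higher.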
